A study of Mus musculus with 2 samples.

Results

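The genes described here are 10 imprinted regulators of growth: H19, Igf2, Igf2r, Meg3, Rian, Dlk1, Peg3, Cdkn1c, Plagl1 and Grb10. They were chosen by symbol, and 9 of them are among the 28692 genes listed for both libraries; Rian was not analysed here. Transcripts of single mouse hepatocytes were counted with a droplet method (10x Genomics Chromium), in 1 library for each of 2 media. All cells came from C57BL/6 liver, an inbred strain, and were grown as a 3-dimensional culture in growth factor-reduced Matrigel, a basement membrane gel. The induction medium held 3 uM dexamethasone, a synthetic glucocorticoid. The expansion medium held 3 uM CHIR99021, a GSK3 inhibitor that activates the Wnt pathway, and 100 ng/mL of the cytokine TNFa in its place. Both media held the growth factors EGF (25 ng/mL) and HGF (50 ng/mL), 10 uM of the ROCK inhibitor Y27632, 1 uM of the TGF-beta receptor inhibitor A83-01, 100 mM nicotinamide and 1.25 mM N-acetylcysteine, and the labels give no animal, age or sex. With 1 library per medium there is no replicate check: no test was made, differences describe these libraries, and any difference between the animals or the runs cannot be told apart from that of the media.

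An imprinted gene is read mainly from the copy inherited from one parent, and methylation laid down in the germ line marks which copy that is. H19, a long noncoding RNA read from the maternal copy, and Igf2, a growth factor read from the paternal copy, are neighbours that share enhancers and a control region bound by the insulator protein CTCF. In mouse liver both are abundant before birth and are repressed in the weeks after it, and both can return in growing or malignant hepatocytes. In an inbred strain both parental copies have the same sequence, so the counts do not tell which copy a transcript came from.

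Cells were kept with 500 or more genes found and at most 25% of their counts from mitochondria. This left 1245 induction cells with 9201887 unique molecular identifiers (UMIs, each 1 captured transcript) and 1191 expansion cells with 29390000 UMIs. A median cell held 6765 UMIs in the induction library and 23180 UMIs in the expansion library, a gap of 3.43 times. The raw barcode lists of the libraries shared 4 barcodes. All 10 hepatocyte markers were above 10 CPM (UMIs of a gene per 1000000 UMIs of the library), at a summed 60940 CPM in induction cells and 37050 CPM in expansion cells. Of 8 bile duct markers, 4 reached 10 CPM, at a summed 771 CPM in induction cells and 1445 CPM in expansion cells, with the ductal keratin Krt7 at 0. Stellate cell markers summed to 0.326 CPM in induction and 0.204 CPM in expansion cells, with 5 of 8 at 0. Macrophage markers summed to 0.869 CPM in induction and 1.77 CPM in expansion cells, with 4 of 7 at 0. Endothelial markers summed to 34.2 CPM in induction and 39.4 CPM in expansion cells, with 4 of 7 at 0 and nearly all of the sum from Egfl7. Those of T or NK, B or plasma, red and mesothelial cells summed, list by list, to at most 3.80 CPM in induction and 2.25 CPM in expansion cells.

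H19 lies at chr7:142575529-142578143 on the minus strand of GRCm38 (the assembly that mm10 denotes, GENCODE M21 annotation) and is annotated as a long intergenic noncoding RNA. Igf2, which is protein-coding, lies on the same strand at chr7:142650766-142666816, 72.6 kb away. Dlk1 at chr12:109452823-109463336 and Meg3 at chr12:109541001-109571726, both on the plus strand, form another imprinted pair, 77.7 kb apart. Igf2r lies at chr17:12682406-12769664. H19, Igf2 and Meg3 transcripts contain the hairpins of microRNAs, whose mature sequences are given here because these are the products a changed host transcript could carry; droplet counting of polyadenylated RNA does not measure them. The sequences are from RefSeq (GRCm38.p6), 5′ to 3′, with the seed (bases 2 to 8), which pairs with target transcripts, in capitals. Those of miR-675 lie in an exon of H19, those of miR-483 in an intron of Igf2, and those of miR-1906 and miR-770 in exons of Meg3. All 7 seeds differed from each other.
mmu-miR-675-5p: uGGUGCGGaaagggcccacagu
mmu-miR-675-3p: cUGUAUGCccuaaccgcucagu
mmu-miR-483-5p: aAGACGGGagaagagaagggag
mmu-miR-483-3p: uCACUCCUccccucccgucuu
mmu-miR-1906: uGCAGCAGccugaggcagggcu
mmu-miR-770-5p: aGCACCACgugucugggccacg
mmu-miR-770-3p: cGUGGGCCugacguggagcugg

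Between the libraries, H19 was higher and Meg3 lower in induction medium, each by more than 2-fold. Igf2 and its clearance receptor Igf2r differed by less than 2-fold, and the other 5 listed genes were near the detection limit. Of the 9 genes, 4 reached 10 CPM in either library; of these, 1 was called higher and 1 lower, where a call needed a ratio of at least 2 with a counting interval that excluded 1. Over all 7220 genes at that level, 9.17% were called higher and 3.17% lower. Relative to the median gene the same 2 genes were called, against 6.65% of all genes higher and 4.67% lower. The median log2 ratio of induction over expansion was -0.21 over the 4 genes at 10 CPM and 0.30 over the 8 genes with UMIs in both libraries, of which 4 are near the detection limit, so its sign depends on those. It was 0.22 over the 8480 genes with at least 50 UMIs in both. Ratios relative to that median gene are given beside the others.

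H19 gave 5128 UMIs in the induction library and 4856 UMIs in the expansion library. Scaled to the library totals this was 557 CPM (95% Poisson interval 542 to 573) in induction cells and 165 CPM (161 to 170) in expansion cells, a log2 ratio of 1.75 (1.70 to 1.81). Relative to the median gene the log2 ratio was 1.54. The intervals here and throughout cover counting error only.

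Igf2, the fetal insulin-like growth factor, gave 5005 UMIs (544 CPM; 529 to 559) in the induction library and 22692 UMIs (772 CPM; 762 to 782) in the expansion library. Its log2 ratio was -0.51 (-0.55 to -0.46), and -0.72 relative to the median gene, so the neighbours H19 and Igf2 stood on opposite sides of 0. Igf2os, which overlaps Igf2 on the other strand, had 8 UMIs in induction and 113 UMIs in expansion cells. No source used here says whether counting used strand, so reads of such pairs may be split between them.

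Igf2r, the receptor that takes IGF2 up for breakdown in lysosomes, gave 224 UMIs (24.3 CPM; 21.3 to 27.8) in induction cells and 672 UMIs (22.9 CPM; 21.2 to 24.7) in expansion cells. The log2 ratio was 0.09 (-0.13 to 0.31), and -0.13 relative to the median gene, so no direction can be read at this depth. Airn, the antisense RNA in Igf2r that silences the paternal copies of its neighbours, had 27 UMIs in induction and 53 UMIs in expansion cells.

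Meg3, a noncoding RNA read from the maternal copy of the Dlk1 domain, gave 108 UMIs (11.7 CPM; 9.63 to 14.2) in the induction library and 1176 UMIs (40.0 CPM; 37.8 to 42.4) in the expansion library. The log2 ratio was -1.77 (-2.07 to -1.48), and -1.99 relative to the median gene. Dlk1, a membrane ligand related to those of Notch and read from the paternal copy of that domain, gave only 26 UMIs (2.83 CPM) in induction and 58 UMIs (1.97 CPM) in expansion cells. Its log2 ratio of 0.52 had an interval of -0.21 to 1.21, so a difference was not detectable at this depth.

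The remaining genes were close to absent. Cdkn1c, an inhibitor of cyclin-dependent kinases, had 8 UMIs in induction and 12 UMIs in expansion cells, a log2 ratio of 1.09 (-0.41 to 2.50). Peg3, a zinc finger protein, had 2 UMIs in induction and 7 UMIs in expansion cells (-0.13; -3.43 to 2.26). Grb10, an adaptor that damps insulin and IGF receptor signalling, had 3 UMIs in induction and 2 UMIs in expansion cells (2.26; -0.87 to 5.84). The zinc finger transcription factor Plagl1, an activator of H19 and Igf2 in mouse development, had 0 UMIs in both, which allows up to 0.326 CPM in the induction library and 0.102 CPM in the expansion library. For none of the 3 with UMIs did the interval of the ratio exclude 1.

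**Figure D1:**
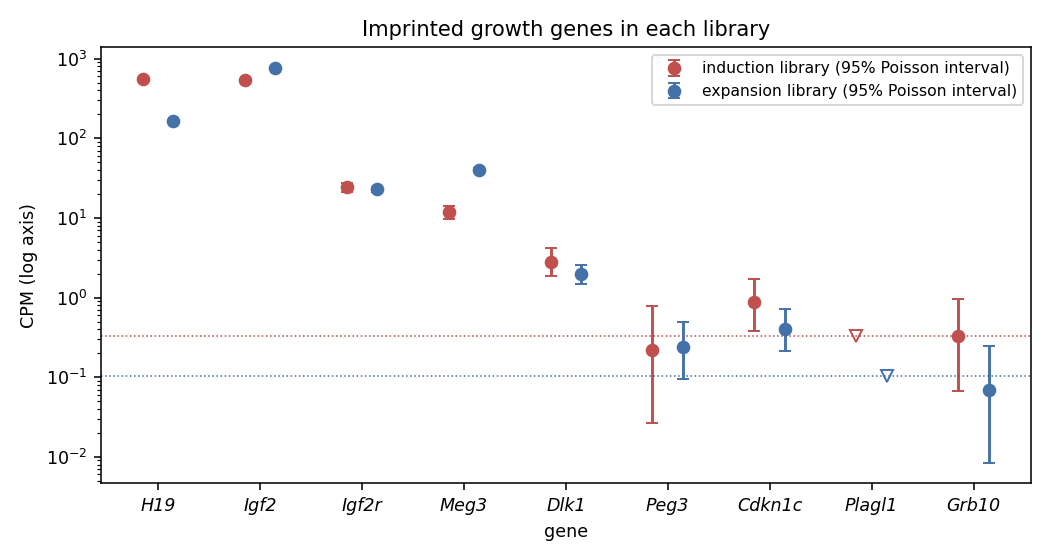
Level of each listed gene in CPM (log axis) in the induction library (red, left of each pair) and the expansion library (blue), with 95% Poisson intervals. Open triangles mark 0 UMIs, drawn at the limit that a count of 0 allows (dotted lines). H19 stands higher at 557 CPM in induction than at 165 CPM in expansion cells, and Meg3 lower at 11.7 CPM in induction than at 40.0 CPM in expansion cells.

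In both libraries, H19 and Igf2 came from a minority of cells with very many transcripts, above a majority with few or none. In the induction library, 1008 of 1245 cells (81.0%) held no H19 UMI, and the highest cell held 155. In the expansion library, 802 of 1191 cells (67.3%) held none, and the highest cell held 532. The 5% of cells with the most H19 held 84.7% of its UMIs in induction and 91.1% in expansion cells, and the top 26 induction cells and the top 10 expansion cells held as many as all other cells of their library together. Because so few cells carry the count, the Poisson intervals understate how far another draw of cells could move it. Without the top 1% of cells for H19 in each library (12 each), an alternative chosen after the data were seen, the H19 log2 ratio was 2.45.

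Igf2 UMIs were spread over more of the cells in the expansion library, which was also the deeper one. There 171 of 1191 cells (14.4%) had no Igf2 UMI, 428 had 1 or 2, and the median cell had 2, while in the induction library 907 of 1245 cells (72.9%) had none and the median was 0. The top 5% of cells held 74.2% of Igf2 UMIs in the induction library and 45.4% in the expansion library. The highest cell had 176 Igf2 UMIs in induction and 394 in expansion medium.

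Meg3 and Igf2r reached far fewer UMIs in any 1 cell. The highest cell for Meg3 held 6 UMIs in the induction and 26 UMIs in the expansion library, and that for Igf2r 3 UMIs in the induction and 8 UMIs in the expansion library. Meg3 was nevertheless carried by few cells: the top 5% held 56.5% of its UMIs in the expansion library, a larger share than for Igf2 there, and all of its 108 UMIs in the induction library lay in 61 cells. The ratio of variance to mean over cells, which is 1 for random counts, depends on depth and was taken after each cell was thinned to 2000 UMIs drawn at random. It was 22.5 in induction and 22.0 in expansion cells for H19, and 19.9 in induction and 12.3 in expansion cells for Igf2. For Meg3 it was 1.24 in induction and 1.71 in expansion cells, and for Igf2r 1.02 in induction and 0.993 in expansion cells. Without thinning the order of the libraries for Igf2 turned, at 58.1 in induction and 94.9 in expansion cells, and H19 stood at 70.1 in induction and 184 in expansion cells.

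**Figure D2:**
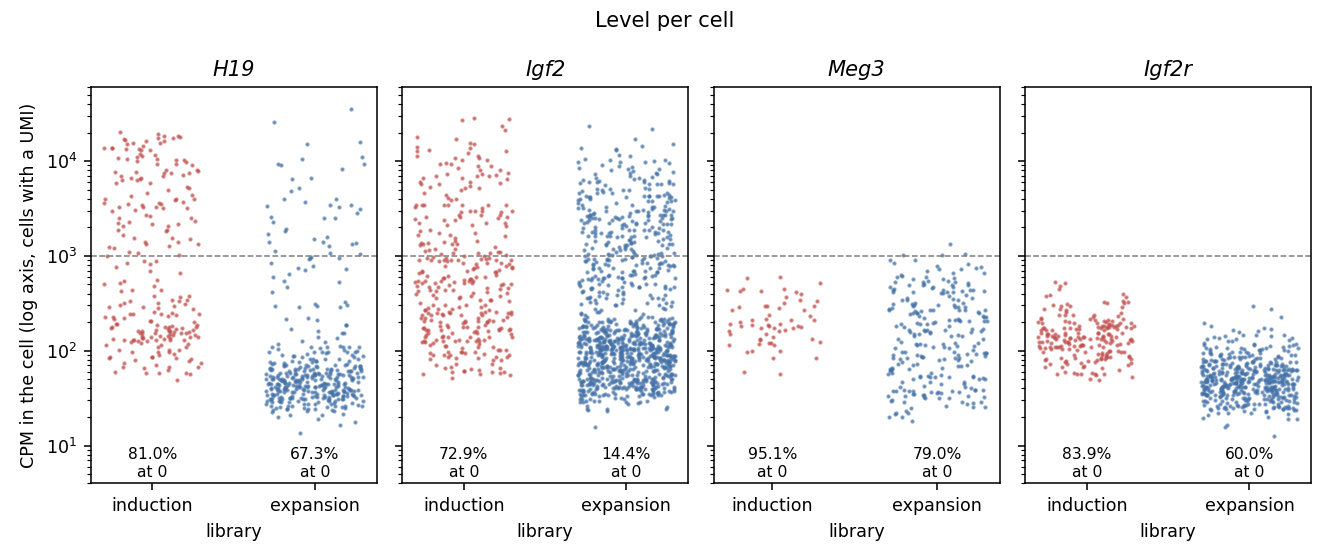
Level in each cell (CPM, log axis) for H19, Igf2, Meg3 and Igf2r, with induction cells (red) left of expansion cells (blue); each point is 1 cell with a UMI, spread sideways at random, and the share of cells with none is printed. The dashed line is 1000 CPM. H19 and Igf2 reach past 10000 CPM in both libraries, whereas 4 expansion cells and 0 induction cells pass 1000 CPM for Meg3; a single UMI stands for more CPM in the shallower induction cells.

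After every cell was thinned to 2000 UMIs, which left out 14 induction cells and 0 expansion cells, H19 was found in 12.0% of induction cells (95% exact binomial interval 10.3 to 14.0) and 8.31% of expansion cells (6.81 to 10.0). Igf2 was found in 17.5% of induction (15.4 to 19.7) and 35.7% of expansion cells (33.0 to 38.5). Meg3 was found in 2.11% of induction (1.38 to 3.08) and 7.64% of expansion cells (6.20 to 9.30). For Igf2r the shares were alike, at 4.55% of induction and 4.37% of expansion cells. Without thinning, H19 was found in 19.04% of induction and 32.7% of expansion cells, and Igf2 in 27.1% of induction and 85.6% of expansion cells. The unthinned shares for Meg3 were 4.90% of induction and 21.0% of expansion cells, and those for Igf2r 16.1% of induction and 40.0% of expansion cells. So the order of the libraries for H19 turned with depth.

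Free RNA can place a transcript in a droplet whose cell does not make it. Xist, the RNA of the inactive X chromosome, should be absent from male cells, yet of cells with at least 3 UMIs of Y-linked genes, 4 of 118 (3.39%) in the induction library and 147 of 457 (32.2%) in the expansion library held a Xist UMI, at median depths of 8566 UMIs in those induction and 26340 UMIs in those expansion cells. The unthinned shares in expansion cells were 32.7% for H19 and 85.6% for Igf2. These RNAs were not equally abundant there, with Xist at 430 CPM, H19 at 165 CPM and Igf2 at 772 CPM. The Xist share therefore cannot be carried over to either gene, and the gauge does not settle their low counts. Expansion cells with 1 or 2 UMIs (310 of 1191 for H19, 428 for Igf2) are not read as expressing the gene. How many of them hold only free RNA was not tested. High-level cells were therefore set apart at 1000 CPM, a limit chosen after the values were seen.

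At 1000 CPM or more, H19 marked 106 of 1245 induction cells (8.51%; 7.02 to 10.2) and 40 of 1191 expansion cells (3.36%; 2.41 to 4.55). These cells held 96.0% of H19 UMIs in the induction and 84.8% in the expansion library, and the remaining cells stood at 23.9 CPM in the induction and 25.9 CPM in the expansion library. Within the high cells the median was 5930 CPM in induction and 3338 CPM in expansion medium. The libraries thus differed in the number and level of H19-high cells, while the remaining cells stood at like levels when pooled. Free RNA was not subtracted from these levels. Between 500 and 2000 CPM lay 29 induction and 26 expansion cells, so these classes are ranges and not cell types.

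For Igf2 the order was the opposite. At 1000 CPM or more stood 115 of 1245 induction cells (9.24%; 7.69 to 11.0) and 220 of 1191 expansion cells (18.5%; 16.3 to 20.8), with 88 induction and 148 expansion cells between 500 and 2000 CPM. The remaining cells also differed, at 73.0 CPM in the induction and 152 CPM in the expansion library. For Meg3, 0 of 1245 induction cells (which allows up to 0.241%) and 4 of 1191 expansion cells passed 1000 CPM.

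The H19-high cells were largely Igf2-high cells, but the reverse depended on the library. Of the H19-high cells, 68 of 106 (64.2%; 54.3 to 73.2) in the induction library and 34 of 40 (85.0%; 70.2 to 94.3) in the expansion library were also Igf2-high. Of the Igf2-high cells, 68 of 115 (59.1%; 49.6 to 68.2) in the induction library but 34 of 220 (15.5%; 10.9 to 20.9) in the expansion library were H19-high. The expansion library therefore held 186 cells with high Igf2 and lower H19, against 47 such cells in the induction library. Meg3 stood at 34.6 CPM in H19-high and 9.87 CPM in other induction cells, and at 183 CPM in H19-high and 35.8 CPM in other expansion cells.

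**Figure D3:**
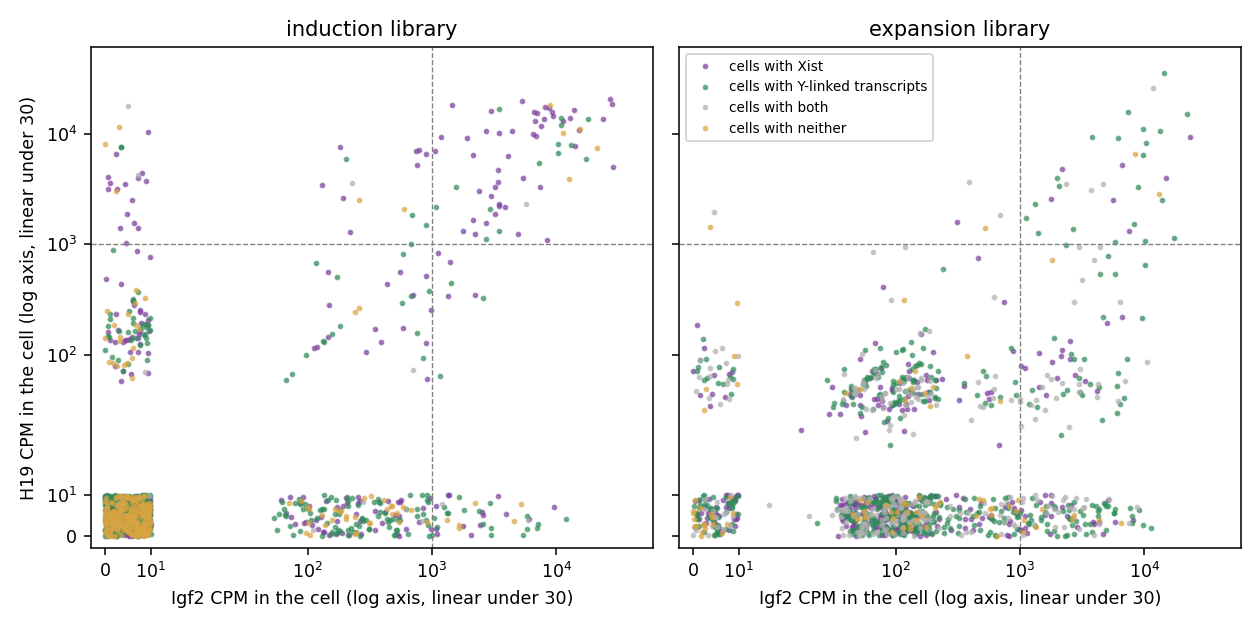
H19 against Igf2 in every cell (CPM, log axes that are linear under 30 CPM; points are shifted at random by up to 10 CPM so that cells at 0 can be seen), with the induction library left and the expansion library right. Colours give cells with Xist, with Y-linked transcripts, with both or with neither, and dashed lines mark 1000 CPM. The upper right field holds 68 induction and 34 expansion cells, and the lower right field 47 induction and 186 expansion cells.

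Over cells, H19 and Igf2 varied together in both libraries, with a Pearson correlation of log-scaled levels of 0.61 over 1245 induction cells and 0.42 over 1191 expansion cells. These are descriptions: the cells share a library, and depth differs between them. Within cells with Xist the correlation was 0.69 in induction and 0.44 in expansion cells, and within cells with Y-linked transcripts 0.51 in induction and 0.47 in expansion cells. Over all cells, correlations between the domains were lower, at 0.14 in induction and 0.30 in expansion cells for H19 with Meg3. For Igf2 with Meg3 they were 0.16 in induction and 0.33 in expansion cells. Within expansion Y cells they came close to the value for H19 with Igf2, at 0.41 for H19 with Meg3 and 0.40 for Igf2 with Meg3, whereas within expansion Xist cells they were 0.12 for H19 with Meg3 and 0.14 for Igf2 with Meg3. Within induction cells of either class they were at most 0.22. Meg3 had only 108 UMIs in the induction library, in 61 cells, and 1176 UMIs in the expansion library. Lower correlations with Meg3 therefore cannot be told apart from its lower counts. Dlk1 and Meg3, neighbours of the other domain, gave 0.01 in induction and 0.20 in expansion cells, where Dlk1 had few UMIs.

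Among 5617 genes found in at least 10% of the cells of both libraries, Igf2 was the gene most like H19 by the smaller of its correlations, and H19 the gene most like Igf2. After Igf2, the genes most like H19 included Bex1 (0.25 in induction, 0.20 in expansion cells), Mat1a, which makes S-adenosylmethionine in liver (0.18 in induction, 0.22 in expansion cells), and the chemokine gene Ccl9 (0.24 in induction, 0.17 in expansion cells). After H19, Igf2 was most like the transferrin gene Trf (0.28 in induction, 0.33 in expansion cells) and the ceruloplasmin gene Cp (0.22 in induction, 0.32 in expansion cells). Hmgcs1 of the mevalonate pathway (0.21 in induction, 0.22 in expansion cells) and Bex1 (0.26 in induction, 0.20 in expansion cells) came next. All of these stood under the H19 to Igf2 value of the same library, 0.61 in induction and 0.42 in expansion cells. Trf and Cp came nearest to it, in expansion cells.

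High H19 did not mark cells with little hepatocyte transcript. Alb stood at 21730 CPM in H19-high and 19260 CPM in other induction cells, and at 2168 CPM in H19-high and 1724 CPM in other expansion cells. Summed ductal and progenitor genes stood at 2234 CPM in H19-high and 3734 CPM in other induction cells, and at 7105 CPM in H19-high and 9381 CPM in other expansion cells. Afp, the fetal albumin-like carrier that is silenced in liver alongside H19 after birth, stood at 20.2 CPM in H19-high and 5.52 CPM in other induction cells, and at 5.95 CPM in H19-high and 5.25 CPM in other expansion cells. These Afp levels rest on only 61 UMIs in the whole induction library and 155 UMIs in the expansion library. No interval was taken for them, so no direction is read.

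Both libraries held cells of both sexes by their transcripts, and the H19 difference was larger in cells with Xist than in cells with Y-linked transcripts. A cell with at least 1 Xist UMI and none of the Y-linked genes Ddx3y, Eif2s3y, Uty and Kdm5d is called a Xist cell here, and the reverse a Y cell. Of the induction cells, 412 were Xist cells and 503 Y cells, 22 held both and 308 neither. Of the expansion cells, 325 were Xist cells and 505 Y cells, 275 held both and 86 neither. Median depths were 6942 UMIs in Xist and 7259 UMIs in Y cells of the induction library, and 23770 UMIs in Xist and 22840 UMIs in Y cells of the expansion library.

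In Xist cells, H19 stood at 1121 CPM (3440 UMIs) in the induction library and 90.0 CPM (740 UMIs) in the expansion library, a log2 ratio of 3.64 (3.52 to 3.75). In Y cells it stood at 253 CPM (1020 UMIs) in the induction library and 211 CPM (2535 UMIs) in the expansion library, a log2 ratio of 0.26 (0.16 to 0.37) that was 0.05 relative to the median gene of Y cells themselves (0.21) and -0.19 with equal weight for every cell. Among Xist cells, 72 of 412 induction cells (17.5%; 13.9 to 21.5) and 8 of 325 expansion cells (2.46%; 1.07 to 4.79) were H19-high. Among Y cells, 20 of 503 induction cells (3.98%; 2.45 to 6.07) and 21 of 505 expansion cells (4.16%; 2.59 to 6.29) were, which the intervals do not separate. In cells with both, H19 stood at 1124 CPM in 22 induction and 180 CPM in 275 expansion cells (log2 ratio 2.64). Of the 218 UMIs in those induction cells, 4 H19-high cells held 99.1%. A Xist UMI was found in 3.39% of induction and 32.2% of expansion cells with at least 3 Y-linked UMIs. This class may thus hold unlike cells in the libraries. In cells with neither, it stood at 236 CPM in induction and 137 CPM in expansion cells (log2 ratio 0.78). Outside the H19-high cells, Xist cells stood at 32.5 CPM in the induction and 20.3 CPM in the expansion library. The corresponding Y cells stood at 23.45 CPM in the induction and 21.3 CPM in the expansion library. The difference between Xist and Y cells in their ratios was not tested, as each class has 1 library per medium.

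Igf2 lay on opposite sides of 0 in these classes. In Xist cells it stood at 831 CPM in the induction and 595 CPM in the expansion library, a log2 ratio of 0.48 (0.41 to 0.55). Relative to the median gene of Xist cells themselves, whose log2 ratio was 0.29, it was 0.19. In Y cells it stood at 438 CPM in the induction and 943 CPM in the expansion library, a log2 ratio of -1.11 (-1.18 to -1.03). Igf2-high cells made up 16.0% (12.6 to 19.9) of Xist cells in the induction and 14.8% (11.1 to 19.1) in the expansion library, which the intervals do not separate. They made up 6.96% (4.89 to 9.545) of Y cells in the induction and 20.6% (17.15 to 24.4) in the expansion library.

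Meg3 was lower in the induction library in both classes, at 5.86 CPM in induction and 17.6 CPM in expansion Xist cells (log2 ratio -1.59; -2.38 to -0.88). In Y cells it stood at 17.6 CPM in the induction and 58.4 CPM in the expansion library (-1.73; -2.10 to -1.38). Igf2r stood at 31.0 CPM in induction and 26.5 CPM in expansion Xist cells, and at 21.1 CPM in induction and 23.7 CPM in expansion Y cells, with both intervals of the ratio spanning 1. In Xist cells 1 of the 9 genes was called higher and 1 lower, where 12.0% of 7583 genes were called higher and 2.69% lower. In Y cells 0 were called higher and 2 lower (Igf2 and Meg3), where 8.46% of 7078 genes were called higher and 4.13% lower. With Y cells taken instead as those with a Y-linked UMI and Xist under 50 CPM, a choice made after the data were seen, the Igf2 log2 ratio was -0.94 (-1.01 to -0.87), under 2-fold, which ends its call.

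Set against each other within a library, Xist cells had more H19 than Y cells in the induction library (log2 ratio 2.15; 2.05 to 2.25) and less in the expansion library (-1.23; -1.35 to -1.11). Igf2 turned likewise, at 0.92 (0.84 to 1.01) in induction and -0.67 (-0.71 to -0.62) in expansion cells. Meg3 was lower in Xist cells of both libraries, at log2 ratios of -1.59 in induction and -1.73 in expansion cells. Whether each class came from 1 animal or several is not known, so sex, animal and medium cannot be told apart.

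**Figure D4:**
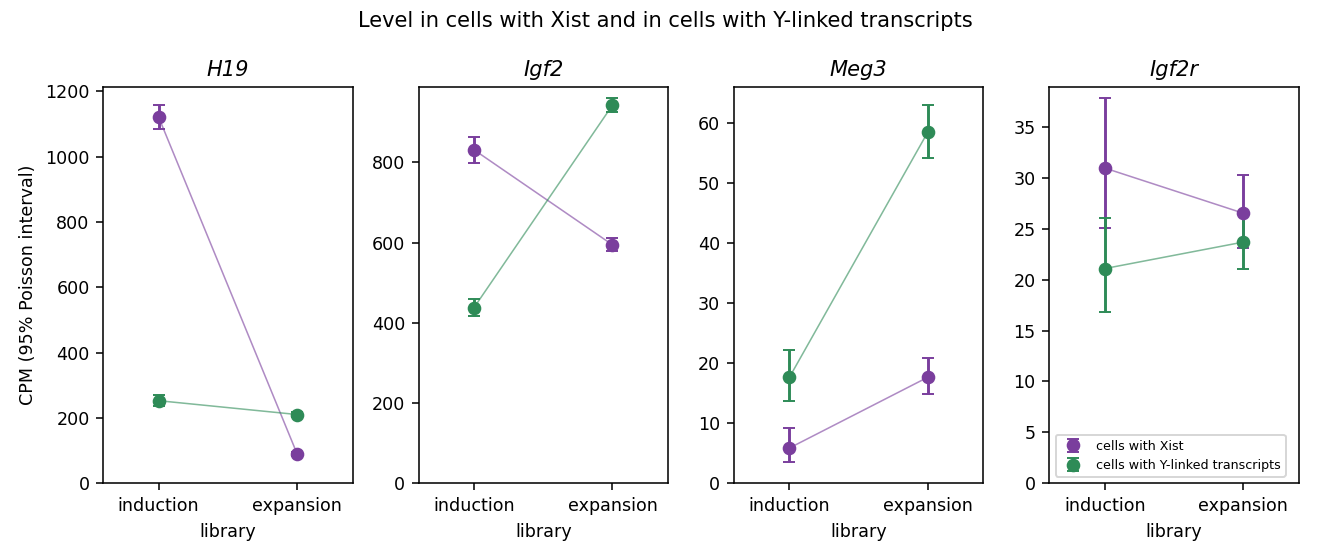
Levels (CPM, linear axes from 0, 95% Poisson intervals) of H19, Igf2, Meg3 and Igf2r in Xist cells (purple) and Y cells (green), with the induction library left of the expansion library in each panel. The lines for H19 and Igf2 cross, with Xist cells above Y cells in the induction library and below them in the expansion library; for Meg3 the Y cells are above in both.

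Clusters were found without the members and the other listed imprinted genes, and 9 held the cells, each named by number and by its leading genes. Xist and the Y-linked genes were not left out, so the clusters are not independent of the Xist and Y classes. All but 2 of them drew at least 20 cells from only 1 library, so a cluster may be a library as much as a state. In the induction library, H19 ran between 9.38 CPM in cluster 6 (47 cells, led by Plat, Spp1, Tubb2b, Marcks and Tuba1a) and 1971 CPM in cluster 4 (226 cells, led by Slc22a30, Tat, Slco1a4, Noct and Cps1). Cluster 4 alone held 53.8% of H19, 34.2% of Igf2 and 4.63% of Meg3 UMIs of the induction library, and 97.4% of its cells were Xist cells. It was thus the highest of the induction clusters for H19 and Igf2, at 1224 CPM for Igf2. Its Meg3 level was the lowest, at 3.57 CPM, but rested on 5 UMIs. Xist cells of other induction clusters had 3.64 CPM of Meg3 in cluster 5 (2 UMIs), 4.62 CPM in cluster 2 (1 UMI) and 9.60 CPM in cluster 1 (4 UMIs). Low Meg3 is therefore not read as particular to cluster 4.

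In the expansion library, H19 ran between 12.7 CPM in cluster 3 (38 cells, led by S100a6, Hmga2, Pmm1, Axl and Serpine2) and 284 CPM in cluster 9 (383 cells, led by the acute phase genes Orm2, Saa2, Orm1, Saa1 and Wfdc21). Cluster 9 held 53.2% of H19, 44.5% of Igf2 and 56.9% of Meg3 UMIs of that library and was its highest for all 3 genes. Cluster 3 was low in H19 in both libraries, at 13.3 CPM over 56 induction cells and 12.7 CPM over the expansion cells. The acute phase cluster of the induction library, cluster 2 (261 cells, led by Serpina3k, Saa2, Orm2, Orm1 and Saa1), had 608 CPM of H19 and 704 CPM of Igf2. Orm and Saa genes have near-identical copies, so their place among the leading genes is uncertain.

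The gap between Xist and Y cells was not only that of cluster 4. In induction cluster 1 (492 cells, led by Ppp1r3b, Acaca, Rgs16, Pank1 and Scd1), H19 stood at 845 CPM in 56 Xist cells and 151 CPM in 253 Y cells. In cluster 2 it stood at 1649 CPM in 26 Xist cells and 483 CPM in 143 Y cells. In cluster 5 (led by the division genes Ube2c, Lockd, Cenpa, Top2a and Rrm2) the order turned, at 206 CPM in 58 Xist cells and 343 CPM in 53 Y cells. The expansion clusters also differed: H19 stood at 18.2 CPM in 71 Xist cells and 359 CPM in 69 Y cells of cluster 8 (led by Ube2c, Mki67, Top2a, 2810417H13Rik and Birc5), but at 348 CPM in 34 Xist cells and 374 CPM in 206 Y cells of cluster 9. In expansion cluster 6 (led by Ccl5, Ly6d, Tm4sf4, Tinagl1 and Trp53inp1) it was 63.1 CPM in Xist and 14.5 CPM in Y cells. In expansion cluster 7 (led by Serpina7, Xist, Adamts9, Enpp2 and Slc1a2) it was 86.1 CPM in Xist and 32.3 CPM in Y cells.

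**Figure D5:**
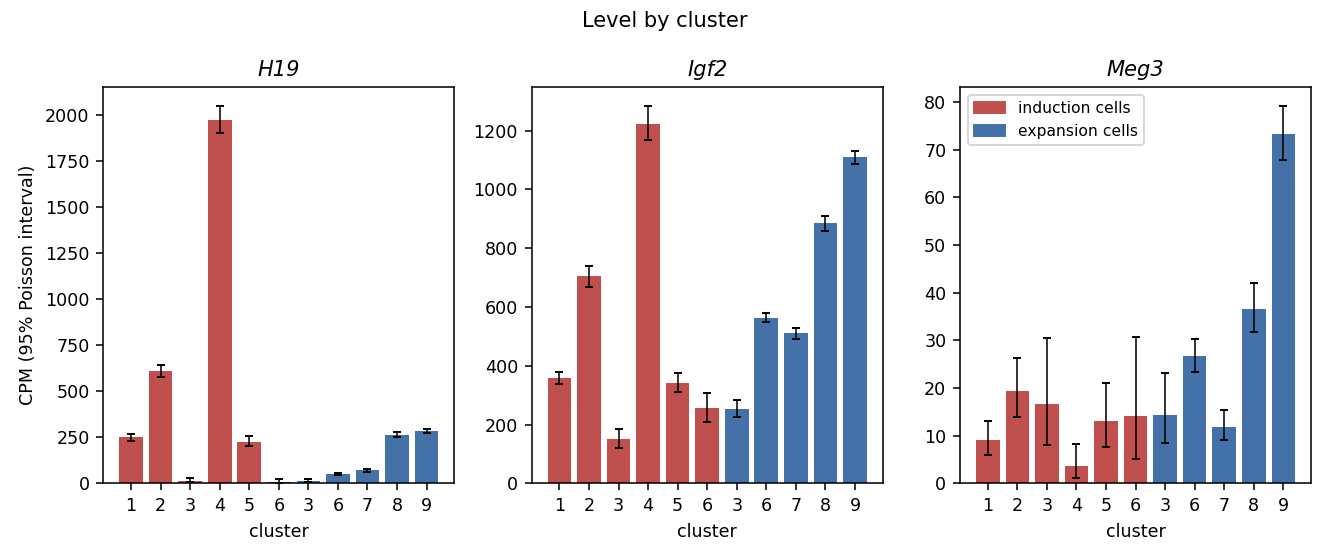
H19, Igf2 and Meg3 in each cluster (CPM, bars from 0, 95% Poisson intervals), with the clusters of induction cells (red) left of those of expansion cells (blue); parts of a cluster under 20 cells are not drawn. Induction cluster 4 stands out at 1971 CPM for H19, while its Meg3 bar, the lowest, rests on 5 UMIs. Expansion cluster 9 is the highest expansion cluster for all 3 genes.

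With all cell classes pooled, cells with transcripts of division had more H19 in the expansion library, but the size depended on few cells. In expansion cluster 8, led by division genes, H19 stood at 18.2 CPM in 71 Xist cells and 359 CPM in 69 Y cells. Over the whole expansion library it stood at 90.0 CPM in Xist and 211 CPM in Y cells. Whether the pooled direction holds within Xist cells was not tested. Cells with at least 2 of 20 G2/M genes after thinning (84 induction and 154 expansion cells) had 793 CPM of H19 in the induction library, against 534 CPM in the other induction cells (log2 ratio 0.57; 0.45 to 0.69). In the expansion library they had 395 CPM, against 128 CPM in the other cells (1.62; 1.53 to 1.71). With at least 3 G2/M genes the log2 ratios were 0.06 in the induction and 0.78 in the expansion library. Without the top 1% of cells for H19 they were -0.11 in the induction and 0.81 in the expansion library, so no direction holds in the induction library. For Igf2 the log2 ratios were 0.49 in the induction and 0.60 in the expansion library with at least 2 genes, and 0.09 in the induction and -0.19 in the expansion library with at least 3. Cdkn1c, the inhibitor of division among the members, was at most 1.53 CPM in any of these classes.

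Of 65 other imprinted genes listed in the files (from 70 looked up), 17 reached 10 CPM, 1 was called higher and 0 lower, where 9.17% of all genes were called higher and 3.17% lower. Their median log2 ratio was 0.39, against 0.22 over all genes, and 17 had 0 UMIs in both libraries. The amino acid transporter Slc38a4 was the one called, at 183 CPM in induction and 83.5 CPM in expansion cells (log2 ratio 1.13; 1.04 to 1.22). With scaling to the median gene it was under 2-fold and Qpct was called lower instead (log2 ratio -1.05). Of the 5 most abundant others, Gnas, the stimulatory G protein alpha subunit, stood at 288 CPM in induction and 336 CPM in expansion cells. The tetraspanin gene Cd81 stood at 356 CPM in induction and 243 CPM in expansion cells, and the signal peptide peptidase gene H13 at 164 CPM in induction and 198 CPM in expansion cells. Kcnq1ot1, the noncoding RNA of the Cdkn1c domain, stood at 91.8 CPM in induction and 71.4 CPM in expansion cells, and the ubiquitin ligase gene Ube3a at 90.6 CPM in induction and 68.4 CPM in expansion cells. Overlapping transcripts at such loci may share reads.

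Of 18 genes that carry, bind, process or signal for IGF2, 9 reached 10 CPM, 4 were called higher and 1 lower, where 9.17% of all genes were called higher and 3.17% lower. Their median log2 ratio was 0.87, against 0.22 over all genes. Relative to the median gene 3 were called higher, since Insr was then under 2-fold (log2 ratio 0.97), where 6.65% of all genes were. Igfbp1, a binding protein for IGFs made by liver, stood at 598 CPM in induction and 81.0 CPM in expansion cells (log2 ratio 2.88). The insulin receptor gene Insr stood at 56.6 CPM in induction and 24.8 CPM in expansion cells, and its substrate Irs2 at 10.2 CPM in induction and 4.22 CPM in expansion cells. Furin, a protease that processes prohormones, stood at 116 CPM in induction and 47.7 CPM in expansion cells. Igfals, which holds circulating IGF in a ternary complex, was called lower, at 5.0 CPM in induction and 12.4 CPM in expansion cells. The most abundant without a call were the binding protein genes Igfbp4 (1380 CPM in induction, 755 CPM in expansion cells) and Igfbp3 (62.7 CPM in induction, 49.4 CPM in expansion cells). With them stood the lysosomal protease gene Ctsd (267 CPM in induction, 159 CPM in expansion cells) and M6pr, a sorting receptor for lysosomal enzymes (55.0 CPM in induction, 52.7 CPM in expansion cells).

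The promoters of the genes were searched for the core of the glucocorticoid response element, ACANNNTGT on both strands, since the induction medium held a glucocorticoid. RefSeq promoter windows of 300 bases (GRCm38.p6) were available for 13 start sites of 8 of the 10 genes; H19 and Cdkn1c were not searched. Of these windows 1, at a start site of Meg3, held the core; 6.85% of 32851 mouse promoters did. The window at chr12:109540746-109541045 on the plus strand is given because Meg3 was the member called lower, with the core in capitals. A match of these letters is a description and not a binding site.
Meg3 promoter: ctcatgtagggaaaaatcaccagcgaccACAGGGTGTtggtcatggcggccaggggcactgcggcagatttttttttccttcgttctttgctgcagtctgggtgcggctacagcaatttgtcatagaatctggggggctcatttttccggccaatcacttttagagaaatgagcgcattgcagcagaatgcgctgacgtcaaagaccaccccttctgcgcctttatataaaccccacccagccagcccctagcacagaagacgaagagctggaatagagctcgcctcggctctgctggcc
The core of the PLAGL1 site (GGGG followed at once by CCCC) was found in 1 of the 13 windows, that of Peg3, against 1.08% of all promoters.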

How the data were processed

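The authors deposited raw UMI counts for each cell barcode and gene. Per the submitters' processing notes, Cell Ranger 2.1.1 and the build mm10 were used; which annotation, strand setting and cell calling went with them is not given in these sources. Groups were taken from the medium in the labels. The members and all gene lists were chosen with earlier results of these data known.

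Counts were summed over the kept cells and divided by the library total (CPM). Log2 ratios are induction over expansion, with exact conditional binomial intervals; levels carry exact Poisson intervals and shares exact Clopper-Pearson intervals, all at 95%, which cover counting error only. A call needed at least 10 CPM in either library, a ratio of at least 2 and an interval excluding 1. A count of 0 allows 3 counts. Cells were thinned without replacement with a fixed seed. Correlations used the natural log of 1 plus counts per 10000. Leiden clustering used scanpy 1.11.5 with igraph 0.11.9 (a resolution of 0.6, 2000 variable genes, 20 principal components, 15 neighbours), without the listed imprinted genes. Xist and the Y-linked genes were not left out of it. Scrublet marked 4 induction and 5 expansion cells as doublets, under the share at which a caller can be trusted; they were kept. The ratio code was tested on simulated data. Scripts ran in Python 3.11.15 with scipy 1.17.1, numpy 2.4.6, pandas 2.3.3 and matplotlib 3.10.9.

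All members are named; of the other lists, the genes called and the 5 most abundant others could be. Bex1 and other genes by likeness were ranked only for members with at least 0.5 UMIs per cell in both libraries, and 5 genes per cluster by fold at 100 CPM or more; 1 gene ranked by likeness is not reported here. Coordinates come from GENCODE M21, matched by gene ID. Alternatives were other cell filters, other scalings, a mean over cells in place of the sum, sums of thinned cells, marked doublets left out, no CPM minimum, stricter Xist and Y classes, other thinning depths, 3 G2/M genes and finer clusters.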

Additional observations from a re-analysis of the deposited data

Results flagged for a closer look

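The log2 ratio of Igf2 between the media had opposite signs in the cell classes of each library, at 0.48 in Xist cells (831 CPM in the induction and 595 CPM in the expansion library) and -1.11 in Y cells (438 CPM in the induction and 943 CPM in the expansion library). Relative to the median gene of each class the log2 ratios were 0.19 in Xist and -1.32 in Y cells, so the Xist side was small. With at least 2 UMIs of Xist or of the Y-linked genes and none of the other, the log2 ratios were 0.59 in Xist and -1.03 in Y cells. With the classes set by the CPM of Xist they were 0.49 in Xist and -0.94 in Y cells, under 2-fold in both. The difference between the classes was not tested, since each class has 1 library per medium, and the part of the animals behind each class was not tested either.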

How the results depend on the processing

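No paired analysis was possible because the labels carry no replicate numbers and each medium has 1 library. The counts of members called, 1 higher and 1 lower, kept their values under each alternative run for them. Their median log2 ratio of 0.30 ranged from 0.08, without mitochondrial and ribosomal protein genes, to 0.67, with equal weight for every cell. Of the other imprinted genes, the count called higher was 0 without mitochondrial and ribosomal protein genes and with scaling to the median gene, 3 with thinning (Slc38a4, Impact and Inpp5f) and 4 with no CPM minimum (Slc38a4, Tfpi2, Zrsr1 and Ddc). Their count called lower was 1 without mitochondrial and ribosomal protein genes and with scaling to the median gene (Qpct), and 2 with no CPM minimum (Ascl2 and Mirg). Over the alternatives the log2 ratio of H19 ranged from 1.53 to 2.45 (2.13 with the stricter cell filter), that of Igf2 from -0.77 to -0.39, that of Meg3 from -2.30 to -1.77 and that of Igf2r from -0.13 to 0.13. In Xist cells that of H19 ranged from 3.52 to 3.91, and in Y cells from -0.19 to 0.31; that of Igf2 ranged from 0.49 to 0.69 in Xist cells and from -1.29 to -0.94, which ends its call, in Y cells. These class ranges leave out scaling to the median gene of the class. That gave 3.35 for H19 and 0.19 for Igf2 in Xist cells, and 0.05 for H19 and -1.32 for Igf2 in Y cells. Over division, the sign turned for H19 in induction cells without its top 1% of cells (-0.11) and for Igf2 in expansion cells with at least 3 G2/M genes (-0.19). The cause of these moves was not tested. Leaving out top cells, the 500 and 2000 CPM limits, the Xist classes by CPM and the scaling of the other lists to the median gene were added after the data were seen. The shallower induction cells limit what can be seen of Dlk1, Cdkn1c, Peg3, Plagl1 and Grb10.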

Other observations

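Genes that keep or erase imprinted methylation were at low to moderate levels in both libraries. Of 12 such genes, 7 reached 10 CPM, 0 were called higher and 1 lower, where 9.17% of all genes were called higher and 3.17% lower. Their median log2 ratio was -0.25, against 0.22 over all genes. Uhrf1, which brings the maintenance methyltransferase to newly copied DNA, stood at 13.04 CPM in induction and 31.5 CPM in expansion cells (log2 ratio -1.27; -1.56 to -0.995). The 5 most abundant without a call were the KRAB zinc finger cofactor gene Trim28 (30.1 CPM in induction, 37.2 CPM in expansion cells), Ctcf (25.4 CPM in induction, 24.0 CPM in expansion cells), the dioxygenase gene Tet3 (15.5 CPM in induction, 18.5 CPM in expansion cells), Dnmt1 (13.8 CPM in induction, 17.7 CPM in expansion cells) and Dnmt3a (10.5 CPM in induction, 11.9 CPM in expansion cells). Zfp57, which protects imprints in the embryo, had 6 UMIs in induction and 33 UMIs in expansion cells, and Ctcfl had 0 in both.

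Of 7 fetal liver genes and their postnatal repressors, 3 reached 10 CPM and 0 were called in either direction, a number too small to set against the 9.17% and 3.17% of all genes called higher and lower. Zbtb20, a repressor of Afp after birth, stood at 163 CPM in induction and 117 CPM in expansion cells, and Zfp36l1 at 334 CPM in induction and 253 CPM in expansion cells. Zhx2, a repressor of H19 and Afp in adult mouse liver, stood at 8.26 CPM in induction and 5.85 CPM in expansion cells, and Afp itself at 6.63 CPM in induction and 5.27 CPM in expansion cells. Hmga2 stood at 22.7 CPM in induction and 17.6 CPM in expansion cells, and Lin28b had 0 UMIs in both. Of 20 secreted hepatocyte proteins, 12 were called higher and 0 lower; of 10 ductal and progenitor genes, 0 were called higher and 2 lower (Clu and Prom1); and of 20 G2/M genes, 0 were called, against the same shares of all genes. Relative to the median gene, where 6.65% of all genes were called higher and 4.67% lower, Ahsg was no longer called among the secreted proteins (11 higher), and Spp1 among the ductal genes (3 lower) and Ccnb2 among the G2/M genes (1 lower) were called in addition.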
